A study of Mus musculus with 5 samples.

Results

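The HoxA and HoxB clusters, the homeobox gene arrays on mouse chromosomes 6 and 11, were examined for DNA methylation at single CpGs and in 1 kb tiles. CpGs were taken by position alone, chr6:52090000-52220000 for HoxA and chr11:96040000-96240000 for HoxB in the mm9 build, with a second count of at least 10 at each in all 5 libraries. That count is the total less the methylated count, or, in K9M replicate 2, the total as deposited. This gave 1208 CpGs in HoxA and 1121 in HoxB, 2329 of the 1780536 autosomal CpGs that met the same minimum. Another 166 HoxA and 181 HoxB CpGs had a lowest second count of 5 to 9 and were left out. Tiles of 1 kb with at least 3 of these CpGs numbered 58 in HoxA and 71 in HoxB, 129 of 152678 in all.

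The study used reduced representation bisulfite sequencing, which cuts genomic DNA with MspI at CCGG and so reads mainly CpG-rich fragments. The libraries were 1 wildtype (WT), 2 from mice expressing histone H3.3 with lysine 36 changed to methionine (K36M) and 2 with lysine 9 changed to methionine (K9M), both described by the labels as dominant negative. K36M and K9M mice received doxycycline at 2 mg/ml in the drinking water. WT is not named in that treatment, so mutant and doxycycline cannot be told apart in a comparison with WT, whereas K36M and K9M shared the treatment. What drives the mutant histone, a promoter or a cell type, is not stated in the labels. The cells carry the source name HSCs, for hematopoietic stem cells, while the growth protocol has them sorted from peripheral blood. Cell identity was not tested, since no RNA or protein marker was measured. Nothing in the labels says that the 2 libraries of a mutant came from separate animals, so their spread, and each p-value, may be technical. A level is an average over the cells of a pellet, so fewer cells with a methylated site and less methylation in each cell cannot be told apart.

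Hox genes encode transcription factors that set position along the body axis, and their order along the chromosome follows the order of their use. In blood, several HoxA genes are active in stem and progenitor cells and are switched off as cells mature. The clusters are rich in CpG islands and are held silent elsewhere mainly by Polycomb complexes, with little DNA methylation. Methylated lysine 36 of H3 is a binding site for the DNA methyltransferases that set new methylation, and methylated lysine 9 marks heterochromatin.

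The sequences before the starts of Hoxa5, Hoxa6 and Hoxa13 are shown as examples. Whether sequence bears on any difference in level was not tested. Hoxa5 is shown because its surroundings were methylated in all libraries, Hoxa6 because an unmethylated start lay beside partly methylated flanks, and Hoxa13 because it was free of methylation. The 250 bases before each start are from RefSeq (GRCm38.p6), written 5′ to 3′ on the gene's strand, which is the minus strand for all of them. CpG sites are in capitals. Their mm9 positions, found by matching the spacing of CpGs to those listed in the files, are chr6:52154587-52154836 for Hoxa5, chr6:52158672-52158921 for Hoxa6 and chr6:52210875-52211124 for Hoxa13.
Hoxa5: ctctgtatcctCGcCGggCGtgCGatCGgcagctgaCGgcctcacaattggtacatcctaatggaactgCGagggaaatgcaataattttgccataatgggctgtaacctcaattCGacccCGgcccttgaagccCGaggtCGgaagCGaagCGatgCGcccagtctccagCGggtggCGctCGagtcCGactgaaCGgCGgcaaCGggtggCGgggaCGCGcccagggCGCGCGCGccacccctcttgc
Hoxa6: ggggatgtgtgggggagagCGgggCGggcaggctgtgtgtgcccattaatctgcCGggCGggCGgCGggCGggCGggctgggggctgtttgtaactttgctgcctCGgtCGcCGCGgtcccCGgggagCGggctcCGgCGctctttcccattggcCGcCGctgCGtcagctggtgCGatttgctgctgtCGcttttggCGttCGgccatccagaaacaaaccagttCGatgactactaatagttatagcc
Hoxa13: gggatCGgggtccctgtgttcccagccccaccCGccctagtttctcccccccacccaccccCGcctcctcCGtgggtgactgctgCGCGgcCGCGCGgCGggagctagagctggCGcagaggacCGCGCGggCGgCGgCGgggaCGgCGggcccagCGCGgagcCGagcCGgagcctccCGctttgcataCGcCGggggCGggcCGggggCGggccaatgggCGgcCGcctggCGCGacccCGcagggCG

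These stretches hold 28, 24 and 35 CpGs, against a median of 6 over the 32851 promoters in the RefSeq table. The MspI site CCGG, which reads the same on both strands, occurs 2 times in Hoxa5 and 3 times each in Hoxa6 and Hoxa13, and 47.05% of all promoters of this length hold at least 1. The matched CpGs in the 300-base window, which adds 50 bases after the start, numbered 22 of 29 for Hoxa5, 26 of 26 for Hoxa6 and 40 of 45 for Hoxa13. The next best position on the chromosome matched 5, 5 and 7. Starts of Hoxa3, Hoxa10, Hoxa11, Hoxa11os, Hoxb3os and Hoxb8 were placed in the same way. Those of Hoxa3 (8 of 20 CpGs matched), Hoxa10 (7 of 21) and Hoxb8 (8 of 13) only just met the margin of 3. Their next best positions matched 6 (with 1 unmatched), 4 and 5, so distances and positions given by these starts are less sure. Another RefSeq start of Hoxa10 could not be placed. Hoxa2, Hoxa7, Hoxa9, Hoxb1 and Hoxb4 could not be placed, and no mm9 annotation was used here, so exons and introns were not assigned.

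Levels below are relative levels, in percent of each library's plateau, the ratio seen in its most methylated tiles. They are used because the deposited values of K9M replicate 2 were on another scale than the other 4, a reading inferred from the values, and a relative level can pass 100%. Libraries listed 3356656 to 3534966 CpGs each and held autosomal totals of 108651379 to 168836289 counts. A level sets a methylated count against a second count that follows depth, and the median second count per CpG was 39 to 52 in HoxA and 34 to 46 in HoxB, against 34 to 44 over all CpGs. PCR reads here carry no molecular identifiers, so the 95% Clopper-Pearson intervals given below cover counting error only.

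Most of the CpGs measured in both clusters were unmethylated. The parts of each window without measured tiles are not described. In HoxA, 872 CpGs (72.2%) had a mean level under 10% over the 5 libraries, 144 lay between 20% and 80% and 130 above 80%. HoxB was alike, with 775 CpGs (69.1%) under 10%, 132 between 20% and 80% and 140 above 80%. Over all CpGs measured, 46.8% were under 10% and 42.7% above 80%. Of the 58 HoxA tiles, 41 were under 20%, 7 between 20% and 80% and 10 above 80%. The 71 HoxB tiles divided into 44, 13 and 14. The median tile was at 5.29% in HoxA and 6.81% in HoxB, and at 89.2% over all tiles. Tiles with 20 or more CpGs were under 20% in 21 of 24 cases in HoxA and 17 of 20 in HoxB and in 79.9% of all such tiles.

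The methylated tiles of HoxA lay among low ones, between chr6:52111001 and 52160000, around and at lower coordinates than the start of Hoxa5. The window opened with a low stretch of 4 tiles and 40 CpGs, from chr6:52100001 to 52110000, at 6.72% in WT, while K36M stood at 10.2% and 7.55% and K9M at 5.93% and 12.8%. The placed start of Hoxa3 is that of its RefSeq transcript and lies beyond Hoxa6. From chr6:52115001 to 52141000, 8 tiles averaged 90.6% in WT, against 78.5% and 77.7% in K36M, with K9M at 91.4% and 92.6%. A low pocket of 2 tiles with 94 and 7 CpGs followed, from chr6:52141001 to 52143000, at 3.15% in WT, while K36M stood at 3.96% and 3.17% and K9M at 7.65% and 6.05%. Then came 6 methylated tiles from chr6:52147001 to 52155000 that take in the start of Hoxa5. Beyond Hoxa6, 33 tiles over 56 kb, from chr6:52161001 to 52217000, averaged 3.30% in WT, against 3.23% and 2.45% in K36M, with K9M at 4.45% and 4.20%. This stretch of 752 CpGs holds the placed starts of Hoxa3, Hoxa10, Hoxa11, the antisense transcript Hoxa11os and Hoxa13, and its highest tile in any library was at 29.7%.

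**Figure D1:**
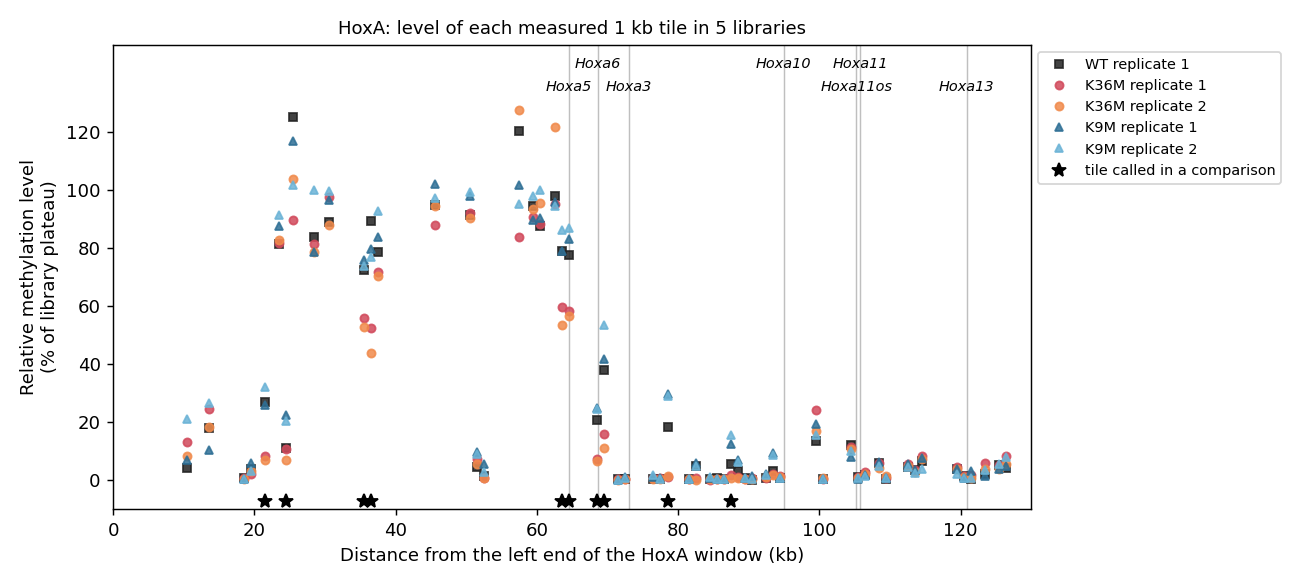
Relative methylation level (percent of plateau) of the 58 HoxA tiles against distance along the cluster, with a point for each of the 5 libraries, vertical lines at the placed starts and stars under the called tiles. Methylated tiles stand at and to the left of Hoxa5, among low tiles and next to a low stretch at the left end. To the right of Hoxa6 most tiles lie low, apart from the tile beside it at 37.8% in WT, with K36M below the other libraries in several tiles near Hoxa5 and Hoxa6.

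HoxB changed between tiles under and above 20% more often, with 22 runs in place of 9, in a longer window with 71 tiles against 58. Runs join tiles across unmeasured gaps. Several HoxB runs above 20% were single tiles not far over that limit, such as those at 22.2%, 24.6% and 28.3%, so the count of runs depends on it. A methylated run of 9 tiles from chr11:96184001 to 96212000 averaged 89.5% in WT, while K36M stood at 82.4% and 82.7% and K9M at 94.2% and 90.8%. It lies at lower coordinates than the placed start of Hoxb3os, which is downstream, since that transcript is on the minus strand. A run of 6 partly methylated tiles from chr11:96121001 to 96131000 stood at 40.7% in WT, 41.0% in both K36M libraries and 43.7% and 45.5% in K9M. The start of Hoxb3os, a transcript antisense to Hoxb3, lay in a low run of 70 CpGs at 1.12% to 2.33% by library.

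**Figure D2:**
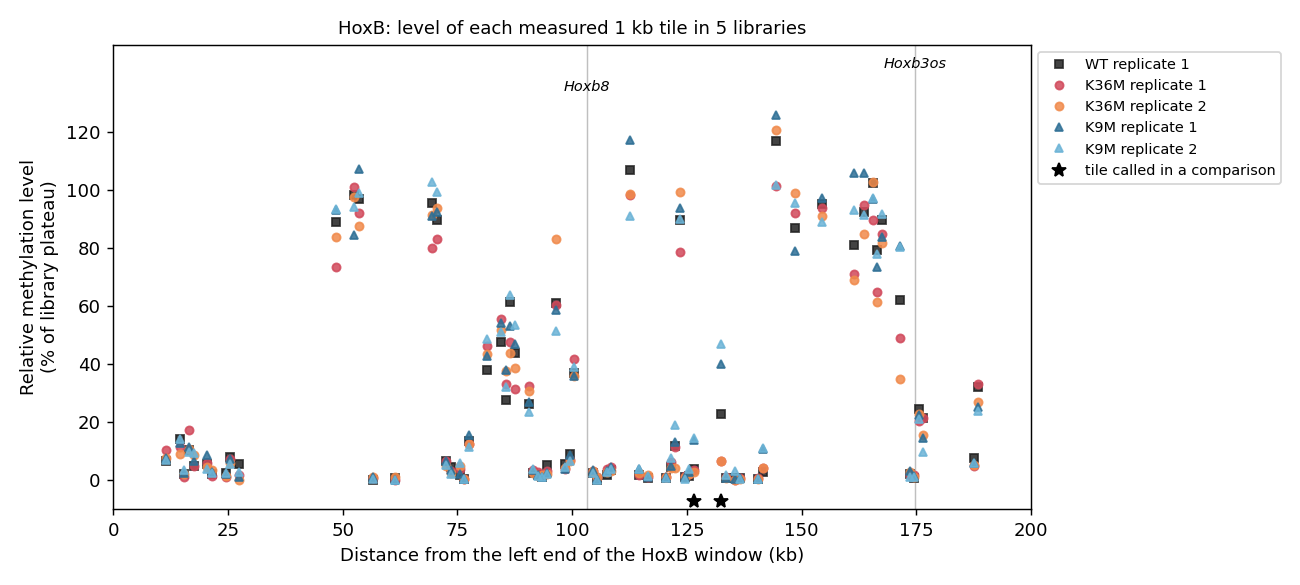
Relative methylation level (percent of plateau) of the 71 HoxB tiles against distance along the cluster, with a point for each library, vertical lines at the placed starts of Hoxb8 and Hoxb3os and stars under the called tiles. Low and methylated tiles alternate, and K36M and K9M part most at the tile of 10 CpGs where K36M stood at 6.73% and 6.48% and K9M at 40.1% and 47.0%.

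The measured CpGs of promoter windows were on average unmethylated in all libraries, except in the window of Hoxa5. Hoxa5, a regulator of lung and limb patterning that is also expressed in blood progenitors, had 8 CpGs measured in its 300 bases, at 73.8% in WT, against 72.2% and 70.5% in K36M, with K9M at 77.7% and 87.9%. Hoxa6 had 22 CpGs at 2.23% in WT, while K36M stood at 0.777% and 0.864% and K9M at 5.62% and 4.27%. The measured CpGs of Hoxa5 thus averaged over 70% in every library and those of Hoxa6, the next gene, under 6%. The Hoxa5 value covers 8 of the 29 CpGs in its window, all at least 128 bases before the start. Window CpGs nearer the Hoxa5 start were not measured, so their state is not known. For Hoxa6, 22 of 26 window CpGs were measured, so the values do not compare like parts of the promoters. Hoxa11, needed for limb and kidney development, lay between 0% and 1.68% over 7 CpGs. Hoxa11os stood at 0.484% to 0.713% over 37 CpGs, and Hoxa13, which patterns digits and the hindgut, at 0.322% to 0.625% over 29. Hoxb3os was at 1.46% in WT, against 4.40% and 1.86% in K36M, with K9M at 2.35% and 1.69% over 13 CpGs. No CpG in the windows of Hoxa3, Hoxa10 and Hoxb8 met the count minimum. Differences between groups at promoters were not tested, and K36M stood from -2.50 points (Hoxa5) to 1.67 points (Hoxb3os) from WT.

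The mean over tiles gives each library a single value per cluster. In HoxA it was 27.6% in WT, while K36M stood at 23.8% and 24.2% (24.0% ± 0.236, SD, n = 2) and K9M at 28.6% and 29.7% (29.2% ± 0.811, SD, n = 2). Both K36M libraries lay below the other 3, and their mean was -3.59 points from WT and -5.16 points from K9M. HoxB stood at 29.3% in WT, against 27.4% and 27.9% in K36M (27.7% ± 0.300, SD, n = 2), with K9M at 30.7% and 30.2% (30.4% ± 0.332, SD, n = 2), so the order was the same with a smaller gap of -1.62 points from WT and -2.77 points from K9M. Over all tiles, the means were 71.0% in WT, 69.0% ± 0.534 in K36M and 72.0% ± 1.83 in K9M (SD, n = 2 each). The exact two-sided permutation test of K36M against K9M gave p = 0.333 for each cluster, the smallest that 2 libraries against 2 allow, and WT had no replicate to test. The median tile differed far less: K36M minus WT was -0.215 points in both clusters, and -0.483 points over all tiles.

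Where K36M lay far below WT in HoxA, the tiles were mostly partly methylated. With tiles classed by the K9M libraries alone, 7 HoxA tiles lay between 20% and 80%, at 39.5% in WT and 21.6% and 18.5% in K36M (20.1% ± 2.18, SD, n = 2). Both K36M libraries were below WT in 7 of these 7 tiles, where 54.2% of all tiles of that class had this order. In HoxB, 12 tiles of the same class stood at 41.7% in WT and 39.5% and 40.2% in K36M, and both K36M libraries were below WT in 5 of 12 and above it in 4. The mean difference was -19.5 points in HoxA, -1.92 in HoxB and -5.53 over all 17736 such tiles. In tiles under 20% by K9M, K36M differed from WT by 0.300 points in HoxA and -0.233 in HoxB, against -0.174 for all tiles of that class. In tiles above 80% by K9M it differed by -6.43 and -5.45 points, against -1.97 for all tiles of that class. The classes use no K36M or WT value, and the shares carry no test. All of these HoxA tiles except chr6:52114001-52115000 are among those called lower in K36M against WT below. Their order thus restates those calls and adds no separate evidence.

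**Figure D3:**
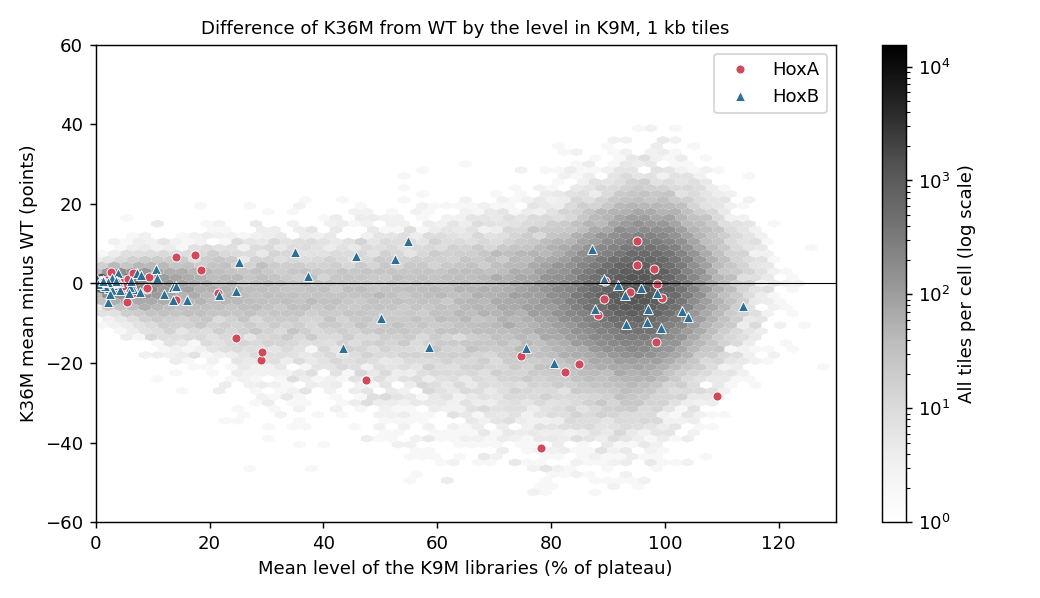
Difference of the K36M mean from WT (points of relative level) against the mean level of the K9M libraries (percent of plateau), with a point for each HoxA and HoxB tile over the density of all tiles in grey; the axes end at 60 points either way and at 130%. HoxA tiles between 20% and 80% all lie below 0, with a mean of -19.5 points, and HoxB tiles of that class lie on both sides of 0.

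Against WT, K36M was lower at 9 Hox tiles, 8 in HoxA and 1 in HoxB, and higher at 0. A tile was called when the logistic model gave an adjusted p under 0.05 over all tiles and the group means differed by at least 10 points. Over all tiles, 0.664% were called lower and 0.0242% higher. The share in HoxA was 13.8% and in HoxB 1.41%, and at an unadjusted p under 0.05 there were 14 and 11 tiles, a threshold that 5.61% of all tiles passed in either direction. All 5 libraries entered a single fit whose spread came from the mutant pairs, so the WT library is assumed to vary as they do. Read as deposited with no plateau, the counts gave 0 calls in all 3 comparisons. Without K9M replicate 2, the library on the other scale, counts as deposited gave 6 tiles lower and 0 higher in K36M against WT, an alternative chosen after the data were seen. With limma on relative levels, 2 of the 9 tiles kept the call, those from 52158001 and 52168001. The share of all tiles called under these alternatives is not given here.

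Around Hoxa6, K36M was lower on both sides of the start. The tile chr6:52158001-52159000, with 42 CpGs and the start of Hoxa6, stood at 20.8% in WT (interval 19.0% to 22.7%), while K36M stood at 7.45% and 6.71% and K9M at 24.7% and 24.5%. K36M minus WT was -13.7 points at an adjusted p of 3.80e-05. The next tile, chr6:52159001-52160000, with 5 CpGs, went from 37.8% in WT (30.4% to 46.8%) to 15.8% and 11.1% in K36M, with K9M at 41.7% and 53.4% (K36M against WT, adjusted p = 0.00304). In each tile both K36M libraries lay below the other 3 with no overlap. By distance from the start, the 14 CpGs from 134 to 433 bases downstream carried most of the difference, at 44.4% in WT, against 17.6% and 15.7% in K36M, with K9M at 53.6% and 53.3%. The 26 CpGs from 47 to 274 bases upstream, most of them within the sequence printed above, were at 1.69%, 0.603% and 0.800%, and 4.61% and 3.59% in the same order. Both stretches lie in the called tile with the start and were chosen after their values were seen.

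Around Hoxa5, the low K36M levels lay downstream of the start. Tile chr6:52154001-52155000, which holds the start and 48 CpGs, stood at 77.6% in WT (73.7% to 81.7%), while K36M stood at 58.3% and 56.5% and K9M at 83.0% and 86.8% (K36M against WT, adjusted p = 0.0120). Tile chr6:52153001-52154000, with 16 CpGs, was at 78.8% in WT (72.1% to 86.2%), against 59.8% and 53.4% in K36M, with K9M at 78.8% and 86.3% (adjusted p = 0.0387). The 52 CpGs from 287 to 740 bases downstream stood at 77.9% in WT, while K36M stood at 55.1% and 52.0% and K9M at 82.4% and 86.3%, with both K36M libraries below the other 3 at each CpG. Over all CpGs measured, 10.8% had that order, but these CpGs make up most of the called tiles, so their count adds nothing to the calls. Upstream, the 12 CpGs from 128 to 355 bases before the start were at 77.8% in WT, against 76.4% and 71.2% in K36M, with K9M at 80.2% and 88.6%. These stretches were chosen after their values were seen, neighbouring CpGs share reads, and the difference between up- and downstream was not tested. Both Hoxa5 calls were lost with edgeR's quasi-likelihood test, at adjusted p of 0.267 and 0.0965, and the latter also without K36M replicate 2 (0.172) and with a plateau set on the top 40% of tiles (0.0676).

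**Figure D4:**
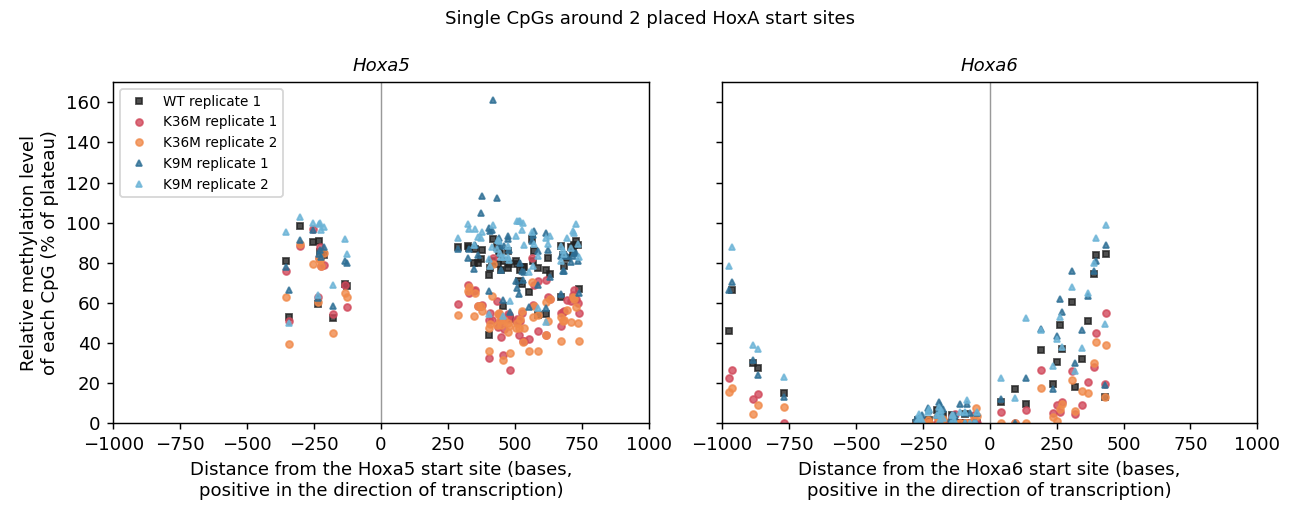
Relative methylation level (percent of plateau) of single CpGs against distance from the start of Hoxa5 and of Hoxa6 (bases, positive downstream), with points by library. At Hoxa5 the K36M libraries part from the others at 287 to 740 bases downstream, and at Hoxa6 the CpGs 47 to 274 bases before the start average at most 4.61% in any library while those 134 to 433 bases after it are at 15.7% to 17.6% in K36M and at 44.4% to 53.6% in the others.

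Further from Hoxa5, at lower coordinates, 3 more tiles were lower in K36M. Tile chr6:52126001-52127000, 28.1 kb from the Hoxa5 start and with 12 CpGs, showed the largest gap, from 89.4% in WT (78.6% to 102%) to 52.3% and 44.0% in K36M, with K9M at 79.5% and 77.0% (difference -41.3 points, adjusted p = 0.00132). Its neighbour chr6:52125001-52126000, with 36 CpGs, was at 72.4% in WT (67.3% to 77.9%), while K36M stood at 55.8% and 52.7% and K9M at 75.7% and 73.7% (adjusted p = 0.0391). At chr6:52111001-52112000, with 13 CpGs and 43.1 kb from Hoxa5, WT was at 26.9% (23.4% to 30.8%), K36M at 8.26% and 7.11% and K9M at 25.9% and 32.0% (adjusted p = 0.000115). In each of these tiles both K36M libraries lay below WT and K9M. The tile with 36 CpGs lost its call at a count minimum of 20 (adjusted p = 0.0531), with the 40% plateau (0.0838), with edgeR (0.264) and without K36M replicate 2 (0.105).

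Inside the low stretch beyond Hoxa6, the tile chr6:52168001-52169000 was also called lower in K36M. It lies between the placed starts of Hoxa3 and Hoxa10. RefSeq puts Hoxa7 and Hoxa9 between Hoxa6 and Hoxa10, the latter of the pair known for sustaining blood progenitors. Its 7 CpGs were at 18.4% in WT (11.8% to 28.0%), against 1.06% and 1.28% in K36M, with K9M at 29.7% and 28.8% (K36M against WT, adjusted p = 0.00361). A tile of like level in that stretch, chr6:52189001-52190000, was not called, at 13.4% in WT, against 24.3% and 16.8% in K36M, with K9M at 19.3% and 15.7%. Counts were thin in the called tile: the K36M levels rest on 2 and 3 methylated counts and the WT level on 28. At 1 of its CpGs, position 52168358, the level was 63.0% in WT, 75.6% and 80.1% in K9M and 5.30% in K36M replicate 2. K36M replicate 1 had 0 methylated counts there, where the floor of 3 counts is 10.3% and the interval runs up to 13.7%.

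The HoxB tile called lower in K36M also differed in K9M, in the other direction. At chr11:96172001-96173000, between the placed starts of Hoxb8 and Hoxb3os, 10 CpGs stood at 22.7% in WT (19.2% to 26.8%), while K36M stood at 6.73% and 6.48% (6.61% ± 0.179, SD, n = 2) and K9M at 40.1% and 47.0% (43.5% ± 4.87, SD, n = 2). The groups did not overlap: K36M was -16.1 points from WT (adjusted p = 0.000253) and K9M 20.8 points from it (adjusted p = 0.00902). These comparisons share the WT library. K36M against K9M, which leaves WT out, gave -36.9 points at an adjusted p of 2.01e-07. With limma on relative levels both calls against WT were lost, that of K36M and that of K9M (adjusted p = 0.197 for K9M). At the CpG at position 96172087, WT was at 45.3%, K36M at 4.26% and 6.54% and K9M at 57.0% and 65.0%.

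**Figure D5:**
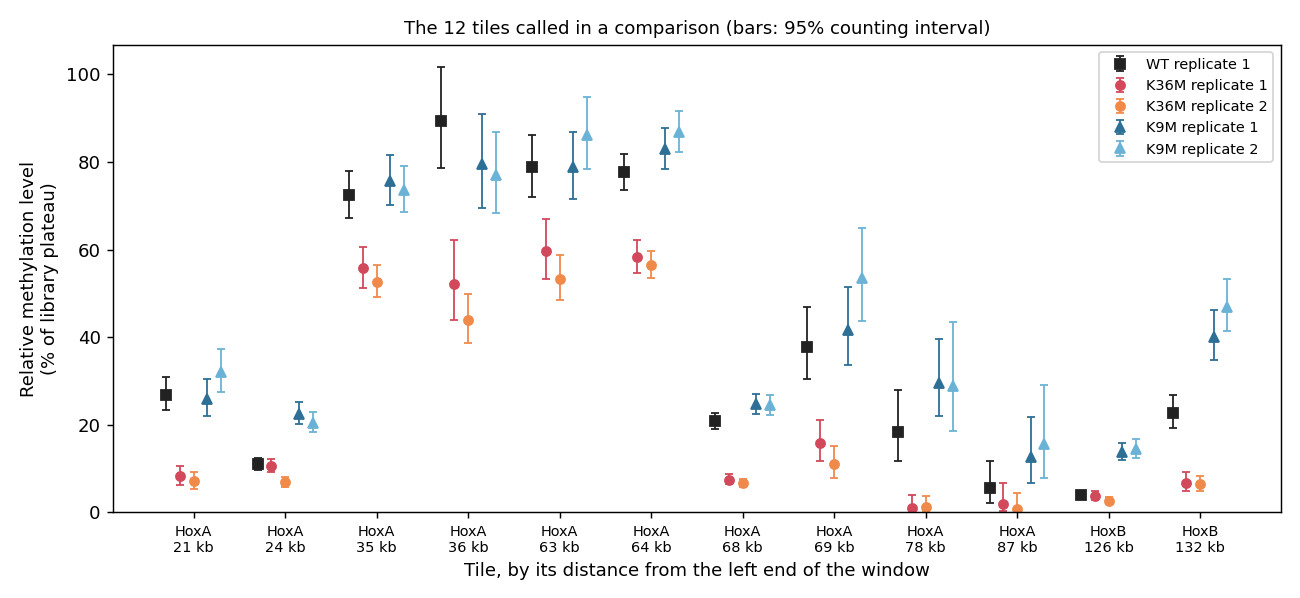
Relative methylation level (percent of plateau) of each library at the 12 Hox tiles called in any comparison, with bars for the 95% counting interval and points coloured by group. K36M is the lowest pair in each tile, and at the HoxB tile of 10 CpGs the order runs from K36M (6.73% and 6.48%) through WT (22.7%) to K9M (40.1% and 47.0%).

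Against WT, K9M was higher at 3 Hox tiles and lower at 0, where 0.0897% of all tiles were called higher and 0.0478% lower. At an unadjusted p under 0.05 there were 19 Hox tiles, and 3.15% of all tiles. Leaving out K9M replicate 1 gave 2 tiles higher and 1 lower. The lower one, chr11:96216001-96217000, is named after its values were seen. It stood at 21.3% in WT, with K9M at 14.5% and 9.54%, a difference of -9.26 points (adjusted p = 0.717) that became -11.7 points (adjusted p = 0.0215) without that library. Tiles shifted by 500 bases left 1 call. The share of all tiles called under either of these alternatives is not given here. Besides the tile just described, chr11:96166001-96167000, with 26 CpGs and 23.3 kb from the Hoxb8 start, stood at 3.88% in WT (3.07% to 4.85%), against 3.68% and 2.70% in K36M, with K9M at 13.8% and 14.4% (K9M against WT, adjusted p = 0.000468). In HoxA, the 28 CpGs of chr6:52114001-52115000 were at 11.0% in WT (9.76% to 12.5%), while K36M stood at 10.6% and 6.92% and K9M at 22.5% and 20.5% (adjusted p = 0.0392). In both tiles the K9M libraries lay above the other 3. The HoxA call was lost with edgeR (adjusted p = 0.0595), with the 40% plateau (0.103) and with limma (0.275), and without K9M replicate 1 the difference fell under the 10-point limit, to 9.46 points at an adjusted p of 0.00888. The HoxB call of 26 CpGs, just above the 10-point limit, fell under it at a count minimum of 20 (9.79 points) and without K9M replicate 2 (9.89 points).

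K36M against K9M is the comparison with 2 libraries on each side and the same doxycycline treatment. Here 12 Hox tiles were lower in K36M, 10 in HoxA and 2 in HoxB, and 0 higher, where 1.51% of all tiles were called lower and 0.0976% higher. The share was 17.2% in HoxA and 2.82% in HoxB, and 38 Hox tiles had an unadjusted p under 0.05, against 7.87% of all tiles. The HoxA tiles with the largest gaps were chr6:52159001-52160000 beside Hoxa6 (-34.1 points, adjusted p = 4.00e-05) and chr6:52126001-52127000 (-30.2 points, adjusted p = 0.000722). The tiles called above against WT by the logistic model with all 5 libraries are all in this list, which shares its libraries with those comparisons. It adds chr6:52177001-52178000, which held 3 CpGs at 5.51% in WT, against 1.81% and 0.757% in K36M, with K9M at 12.6% and 15.7% (adjusted p = 0.0133), and lost its call without K36M replicate 2 (0.0922). Counts under alternatives, among them counts as deposited, are given further below without the share of all tiles called in the same setting.

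The order of the libraries was also counted over all tiles. Both K36M libraries lay below the other 3 in 19 of 58 HoxA tiles (32.8%) and 14 of 71 HoxB tiles (19.7%), against 20.6% of all tiles. They lay above the other 3 in 5 tiles of each cluster, against 8.85%. Both K9M libraries lay above the other 3 in 20 HoxA tiles (34.5%) and 12 HoxB tiles (16.9%), against 17.6%, and below them in 6 and 5 tiles, against 7.07%. HoxB was close to the background in each order, and the difference between the clusters was not tested. Among single CpGs, K36M was below the other 3 at 247 of 1208 in HoxA and 118 of 1121 in HoxB (10.8% of all CpGs), and above them at 53 and 104 (6.85%).

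Several HoxB tiles with large gaps were not called. At chr11:96211001-96212000, 3.21 kb from the Hoxb3os start, 4 CpGs were at 62.0% in WT, while K36M stood at 49.0% and 34.9% and K9M at 80.6% and 80.3%, with 11.8 to 20.3 counts per CpG and an adjusted p of 0.186 for K36M against K9M. At chr11:96201001-96202000, 3 CpGs were at 81.0% in WT, against 71.0% and 68.9% in K36M, with K9M at 105.6% and 93.1% (adjusted p = 0.275). The K36M libraries lay below the rest in both. At chr11:96206001-96207000, 9 CpGs stood at 79.3% in WT, while K36M stood at 65.0% and 61.2% and K9M at 73.3% and 77.8% (K36M against WT, adjusted p = 0.794). Among the most methylated tiles, chr6:52140001-52141000 was at 91.4% in WT, against 91.99% and 90.3% in K36M, with K9M at 97.95% and 99.2%, so both K9M libraries were highest. At chr11:96205001-96206000, WT was at 102.5%, K36M at 89.6% and 102.6% and K9M at 96.8% and 97.2%, and the groups overlapped.

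No single Hox CpG was called in any of the 3 comparisons by the logistic model moderated with limma, where 0.0% of all 1780536 CpGs were called in each. At an unadjusted p under 0.05 there were 45 Hox CpGs for K36M against WT, 33 for K9M against WT and 121 for K36M against K9M, of 2329, while 0.48%, 0.22% and 0.889% of all CpGs passed that threshold. No other tool was run on single CpGs. The largest gaps between K36M and WT in HoxA included the CpG at position 52126072, at 115% in WT, while K36M stood at 54.8% and 40.7% and K9M at 81.4% and 92.7%. It rested on 44 methylated counts in WT, for which the interval ran from 70.99% to 188%.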

How the data were processed

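The deposited tables list CpGs with a fraction (the methylation level) and a count (the total), made by the authors with cutadapt, BSMAP and the mm9 build per the submitters' processing notes. Versions, deduplication and how the fraction was computed are not given in the sources used here. Libraries had 12 PCR cycles, per the labels' protocols.

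The methylated count was the rounded product of level and total. The second count was the total minus it, or the total itself in K9M replicate 2, whose fractions were inferred from the values to be on another scale. Products were whole within 0.01 for 100% of CpGs in 4 libraries and 89.2% in K9M replicate 2. The ratio of both counts was divided by the plateau, its median in the 20% of tiles ranked highest on average (1.23 in WT, 1.22 and 1.26 in K36M, 1.37 and 0.954 in K9M). A change that scales a whole library cannot be seen on this relative level.

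Tiles and CpGs were fitted over all autosomes with a logistic model with the log plateau as offset, its dispersion moderated with limma's squeezeVar (limma 3.58.1, R 4.3.3) and held at 1 or above, with 2 residual degrees of freedom, an F test and Benjamini-Hochberg adjustment. The dispersion exceeded 1 in 23.0% of tiles. CpGs on a read are not independent, which only this dispersion can take up. The fit was tested on simulated data. Alternatives were edgeR 4.0.16, limma on relative levels, count minimums of 5 and 20, another plateau, shifted tiles, deposited counts, a replicate block and each library left out.

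Promoters were placed where at least 7 CpGs matched, 0 listed CpGs went unmatched and the matched CpGs exceeded those of the next best position, less its unmatched ones, by at least 3. Tiles named were those called, the 5 most methylated of each cluster and the 3 with the largest difference per comparison, of which the text gives a part. CpGs were named by size of difference. The clusters and the gene lists were chosen with earlier results of these data known.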

Additional observations from a re-analysis of the deposited data

How the results depend on the processing

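None of the 24 calls and no difference in mean level changed sign under the alternatives run. Among the named tiles that were not called, 3 differences of K9M from WT changed sign with counts as deposited: chr6:52115001 went from -15.7 to 18.6 points, chr6:52126001 from -11.1 to 10.4 and chr6:52147001 from -21.9 to 14.8. Of 24 calls on the 12 tiles, 24 held at a count minimum of 5, 20 at a minimum of 20, 21 with a plateau set on the top 40% of tiles, 20 with edgeR's quasi-likelihood test and 11 with limma on relative levels. At the minimum of 20, 2 calls were lost, and the others that did not hold were on tiles left with too few CpGs to test. The calls that limma kept against WT were 2 for K36M and 1 for K9M. Counts as deposited gave 0 tiles in each of the 3 comparisons; the 4 libraries other than K9M replicate 2 gave 6, 3 and 13 (K36M and K9M against WT, K36M against K9M) on the same reading. The replicate block also gave 0 tiles in all 3 and left 1 residual degree of freedom. The replicate numbers give no pairing beyond the number, and deviations of same-numbered libraries correlated at 0.0773 over all tiles and -0.198 over Hox tiles. Without a mutant library, calls numbered 7 to 9 for K36M against WT, 2 to 3 for K9M against WT (without K9M replicate 1, 2 higher and 1 lower) and 11 to 13 for K36M against K9M, and single CpGs called in the last numbered 0 to 4: 1 without K36M replicate 1, 4 without K9M replicate 1 and 2 without K9M replicate 2. Tiles shifted by 500 bases left 1 call for K9M against WT. Counts under an alternative are given without the share of all tiles or CpGs called in that setting. They therefore cannot be set against a background here, nor read as a measure of how well the Hox calls hold.

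The HoxA mean level of K36M minus WT was -3.00 points at a minimum of 20, -2.75 with shifted tiles and -1.81 as deposited; K36M minus K9M was -8.16 as deposited and -3.99 as deposited without K9M replicate 2; K9M minus WT was 6.35 as deposited. In HoxB, K36M minus WT was -1.31 with the other plateau, -1.15 with shifted tiles and -0.720 as deposited. K36M minus K9M was -3.15 and -2.13 at minimums of 5 and 20, -2.26 with the other plateau and -6.27 as deposited. K9M minus WT was 0.812 at a minimum of 20, 1.56 with shifted tiles, 5.55 as deposited and 2.00 as deposited without K9M replicate 2. The cause of these shifts was not tested.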

Other observations

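The promoter windows that could be measured for genes that act with or upon the Hox clusters were unmethylated in all groups. Of 33 such genes, 25 are in the RefSeq promoter table and 22 were placed, and 24 windows had CpGs to measure, all under 10% in every library, the highest being Meis2, a DNA-binding partner of Hox proteins, at 6.30% in WT. K36M stood from -3.31 to 1.01 points from WT there. A window needed at least 7 matched CpGs to be placed, so CpG-poor promoters could not enter. The share over all promoters was not measured. Of all tiles with 20 or more CpGs, 79.9% were under 20%, so low levels are usual where CpGs are dense. Dnmt3a, a methyltransferase that sets new methylation, was at 0.180% to 0.714% over 3 start sites, and Ezh2, the catalytic subunit of Polycomb complex PRC2, at 0% to 1.60%. In HoxD, 7 windows were measured and 6 were under 10% in all libraries, while Hoxd12 lay at 13.4% in WT, against 16.1% and 12.2% in K36M, with K9M at 10.8% and 10.6%. No HoxC window could be placed.

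A CpG in HoxA at position 52194430, ran against the other contrasts, with WT highest at 49.3%, K36M at 27.4% and 25.6% and K9M at 12.7% and 14.6%. It rested on 14 methylated counts in WT and was not called.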
